A study of Mus musculus with 8 samples.

Results

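Endothelial cells line blood and lymph vessels, and the 10 genes described here (Pecam1, Cdh5, Kdr, Flt1, Tek, Tie1, Robo4, Eng, Esam and Vwf) are widely used to mark them. They were followed in testis RNA of Vrk1 mutant and wild-type mice through every non-control probe that the array files name after one of them. By this rule 9 of the 10 genes had a probe, and they had 19 of the 41174 probes on the array. The files hold 27962 gene names in all. Esam had no probe under its current symbol. A probe the files call Esam1, the older symbol, is described beside Robo4 but is not counted.

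The study hybridised RNA of whole testicular cells from male mice, 4 samples labelled VRK1-/- (mutant) and 4 labelled VRK1+/+ (wild type), to single-colour Agilent arrays, 1 sample to an array. The labels describe 4 independent experiments per genotype. Age, strain, kind of mutant allele and animals are left unstated by the labels, so the p-values measure the spread between these samples. Vrk1 encodes a nuclear serine/threonine kinase, and the comparison asks how testis transcripts differ without the normal gene. The mutant arrays lay on one slide and in one scan and the wild-type arrays on another, and genotype cannot be told apart from slide or scan.

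Blood vessels of the testis run between the seminiferous tubules beside Leydig cells and macrophages, and endothelium is a minor part of the organ. Endothelial cells hold to each other through Cdh5 (VE-cadherin) and Pecam1 (CD31). They sense vascular endothelial growth factor (VEGF) through Kdr and Flt1, angiopoietins through Tek and its partner Tie1, and ligands of the bone morphogenetic protein family through the co-receptor Eng. They also make von Willebrand factor (Vwf), which tethers platelets. In RNA of a whole organ, fewer cells of a type and less RNA per cell cannot be told apart.

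A level below is the log2 of a spot's background-subtracted signal over the 75th percentile of its array, so a level of 0 equals that percentile, and a difference is mutant minus wild type on this scale. Levels had a floor of -6.12. Differences were tested with limma over the 33717 probes whose spots stood well above background in 4 or more of the 8 arrays, and a probe passed at a Benjamini-Hochberg adjusted p under 0.05. The 75th percentiles were 928 to 1124 in mutant arrays and 680 to 790 in wild-type arrays. Mutant arrays had 83.3% to 86.5% of features well above background, against 73.2% to 77.5% in wild-type arrays. The Vrk1 probe A_51_P102339 had levels of -3.17, -3.00, -3.00 and -2.72 in the mutant and -0.89, -0.79, -0.63 and -0.54 in wild type, 4.78-fold lower in the mutant (limma adjusted p = 0.00016). The other Vrk1 probe, A_52_P555672, was 4.17-fold lower. The labels do not say which part of Vrk1 was altered, nor whether these probes lie in it.

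Of the 19 endothelial probes, 16 entered the test. The other 3, an AK031380 probe of Pecam1, an AK054510 probe of Kdr and an AK044921 probe of Vwf, were not well above background on any array. Among the 16, 4 were higher in the mutant: the Pecam1 probe, 1 of 2 Cdh5 probes, 1 of 5 Flt1 probes and the Robo4 probe. None was lower, and the other 12 did not pass. The 4 make 25.0% of the probes tested, where 21.2% of all probes tested were higher, 10.8% lower and 32.1% one or the other, so the share of endothelial probes that were higher is near that of the array. The median difference was 0.32 over the 16 probes and 0.05 over all probes. Over the 25647 probes with mean levels in the range of the endothelial ones, the median was 0.14, with 23.0% higher and 7.15% lower. The difference was above 0 for 13 of the 16 probes and below 0 for 3. The number of probes that passed depended on how the arrays were scaled: it was 1, Cdh5 A_52_P248604, after scaling to the median of each array and after quantile normalization. The share of all probes that were higher also fell under these scalings, to 13.3% and 12.8%.

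**Figure D1:**
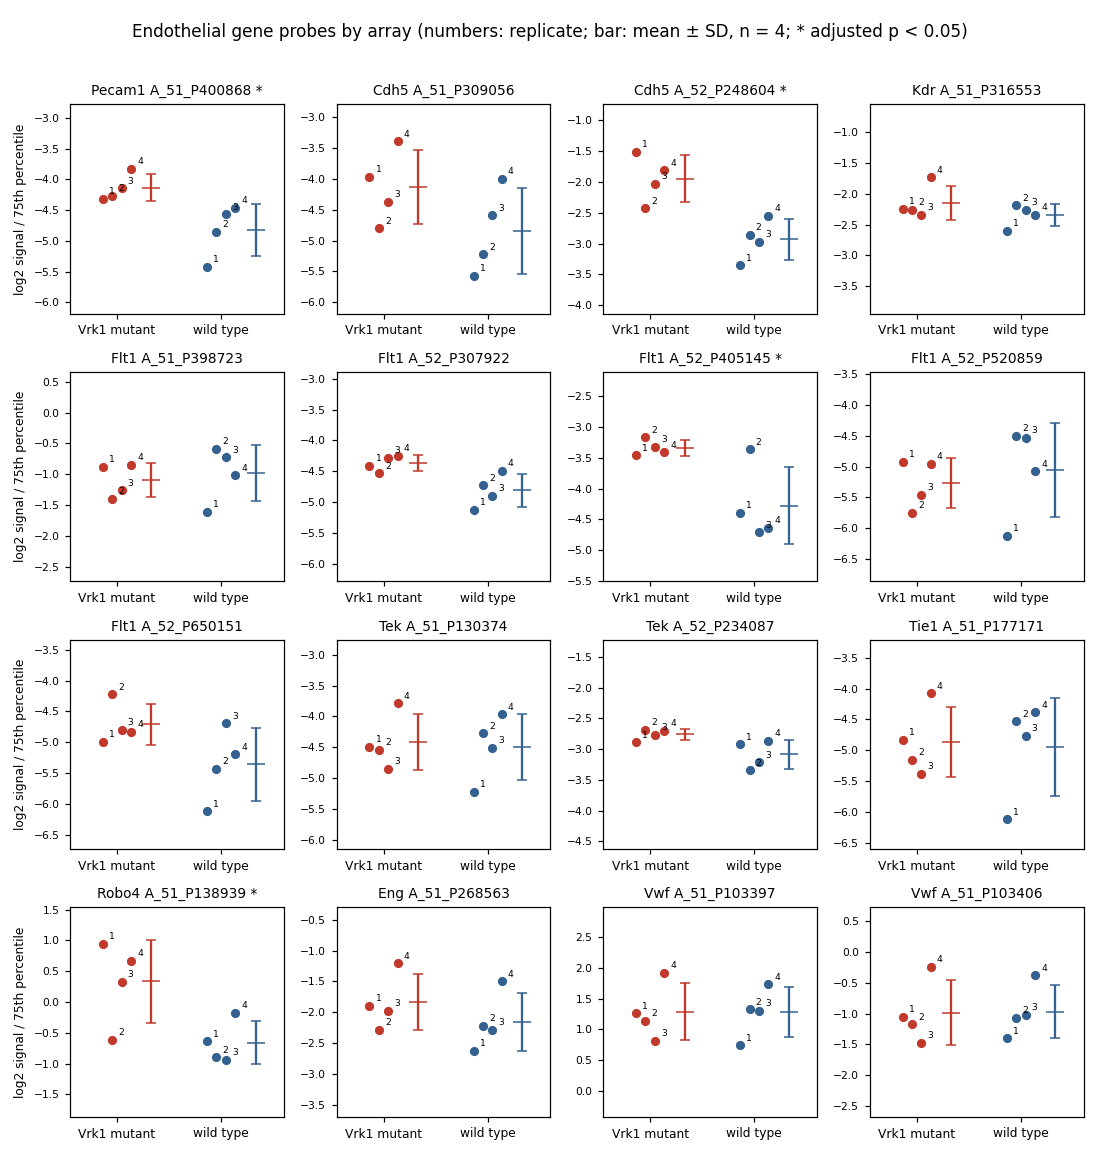
Log2 level (signal over the 75th percentile of the array) of the 16 endothelial probes tested, 1 panel per probe, with the mutant arrays to the left of the wild-type arrays. Numbers are replicates, bars are mean ± SD (n = 4), each vertical axis spans the same range, and an asterisk marks the 4 probes with an adjusted p under 0.05. Mutant and wild-type points are apart only for Pecam1 and for Cdh5 A_52_P248604.

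The Flt1 probes are shown first because Flt1 is the member with the most probes and they gave unlike answers. Each is a 60-base oligonucleotide, and its first 30 bases are printed 5′ to 3′ as deposited. No capitals are used, since no part of them is singled out, and no 2 of them share a run of 12 bases.
Flt1 A_51_P398723: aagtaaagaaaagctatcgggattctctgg
Flt1 A_52_P520859: cctgtattattccgattttaataatctaat
Flt1 A_52_P307922: caccaagctttgatggcattcaaagatgtc
Flt1 A_52_P650151: ttttttgagcatttaagaatttttaacttt
Flt1 A_52_P405145: tccctatcccaactacacattcaatcttct
They are listed by position on chromosome 5 in the coordinates of the array files (mm7), from 146456619 for the start of A_51_P398723 to 146548863 for the end of A_52_P405145, and the file places them on the minus strand, so the last one listed lies nearest to the start of the gene. A_51_P398723 and A_52_P405145 start 92185 bases apart. The pair at the low end carries the RefSeq accession NM_010228. The other 3 carry cDNA accessions (BC029674, AK084177 and AK005502).

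Cdh5 and Pecam1 sit at endothelial junctions. Cdh5, the cadherin of those junctions, had the probe that passed most often, in 16 of 18 alternative fits. Cdh5 A_52_P248604 (chromosome 8, 102744763 to 102744822, mm7) had levels of -1.51, -2.43, -2.03 and -1.81 in the mutant and -3.35, -2.86, -2.97 and -2.55 in wild type. All 4 mutant arrays lay above all 4 wild-type arrays. The difference was 0.99 ± 0.23 (SE, n = 4 each), a 1.98-fold rise (limma adjusted p = 0.013). It passed in each of the 8 fits that left out 1 array (differences of 0.84 to 1.15). It did not pass after normexp background correction (0.30, limma adjusted p = 0.210) or without mutant replicates 1 and 4 (0.70, limma adjusted p = 0.123).

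The other Cdh5 probe, A_51_P309056, lies 660 bases away. Its levels were -3.96, -4.80, -4.37 and -3.39 in the mutant and -5.57, -5.22, -4.59 and -4.00 in wild type, and the genotypes overlapped. Its difference was 0.72 ± 0.38 (SE) and did not pass (limma adjusted p = 0.164), and in wild type it was well above background on 2 of the 4 arrays.

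Pecam1, an adhesion molecule of endothelium, platelets and leukocytes, was measured by 10 spots per array. The probe A_51_P400868 (chromosome 11, 106790116 to 106791969, mm7) had mean levels of -4.32, -4.27, -4.15 and -3.83 in the mutant and -5.42, -4.85, -4.57 and -4.46 in wild type. The genotypes did not overlap, and 2 of the 16 endothelial probes did so with the mutant higher, against 21.6% of all probes tested. The difference was 0.69 ± 0.22 (SE), a 1.61-fold rise (limma adjusted p = 0.039). The signal was weak: the 10 spots of an array had an SD of 0.087 to 0.15 in mutant arrays and 0.36 to 0.80 in wild-type arrays, where 3 of the 4 arrays had the probe well above background. Of the 8 fits that left out 1 array, it passed in the one without wild-type replicate 4 and missed in the other 7 (adjusted p up to 0.099). After normexp correction it turned to -0.25 (limma adjusted p = 0.288).

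Kdr and Flt1 are the VEGF receptors of blood endothelium, Kdr the main signalling receptor and Flt1 a receptor whose soluble form binds VEGF without signalling. Kdr A_51_P316553 (chromosome 5, 75351537 to 75351596, mm7), also with 10 spots per array, had levels of -2.25, -2.26, -2.34 and -1.73 in the mutant and -2.60, -2.19, -2.26 and -2.34 in wild type. Apart from mutant replicate 4, the mutant arrays lay inside the range of wild type. The difference was 0.20 ± 0.17 (SE; limma adjusted p = 0.375), with a 95% interval of -0.18 to 0.59.

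The 5 Flt1 probes ran from -0.21 to 0.94. The pair with the RefSeq accession had differences of -0.11 (A_51_P398723, 95% interval -0.64 to 0.42) and -0.21 (A_52_P520859, -1.01 to 0.58), neither of which passed. The other 3, which lie nearer to the start of the gene, had 0.44 (A_52_P307922, limma adjusted p = 0.061), 0.65 (A_52_P650151, limma adjusted p = 0.110) and 0.94 (A_52_P405145, limma adjusted p = 0.029).

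Flt1 A_52_P405145 had levels of -3.46, -3.17, -3.32 and -3.41 in the mutant and -4.40, -3.36, -4.71 and -4.63 in wild type. Wild-type replicate 2 lay among the mutant arrays and the other 3 below them. The rise was 1.91-fold. Of the 8 fits that left out 1 array, it passed without wild-type replicate 1 or 2 and missed in the other 6 (adjusted p up to 0.076), and it was 0.01 after normexp correction. Flt1 A_51_P398723 had levels of -0.87, -1.40, -1.26 and -0.85 in the mutant and -1.61, -0.59, -0.72 and -1.01 in wild type, where the mutant arrays all lay inside the wild-type range. The difference between these probes was not tested. Flt1 A_52_P520859 passed as lower in the mutant after normexp correction (-0.67, limma adjusted p = 0.030) and with array weights (-0.71, limma adjusted p = 0.038). The 5 probes did not share a direction.

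**Figure D2:**
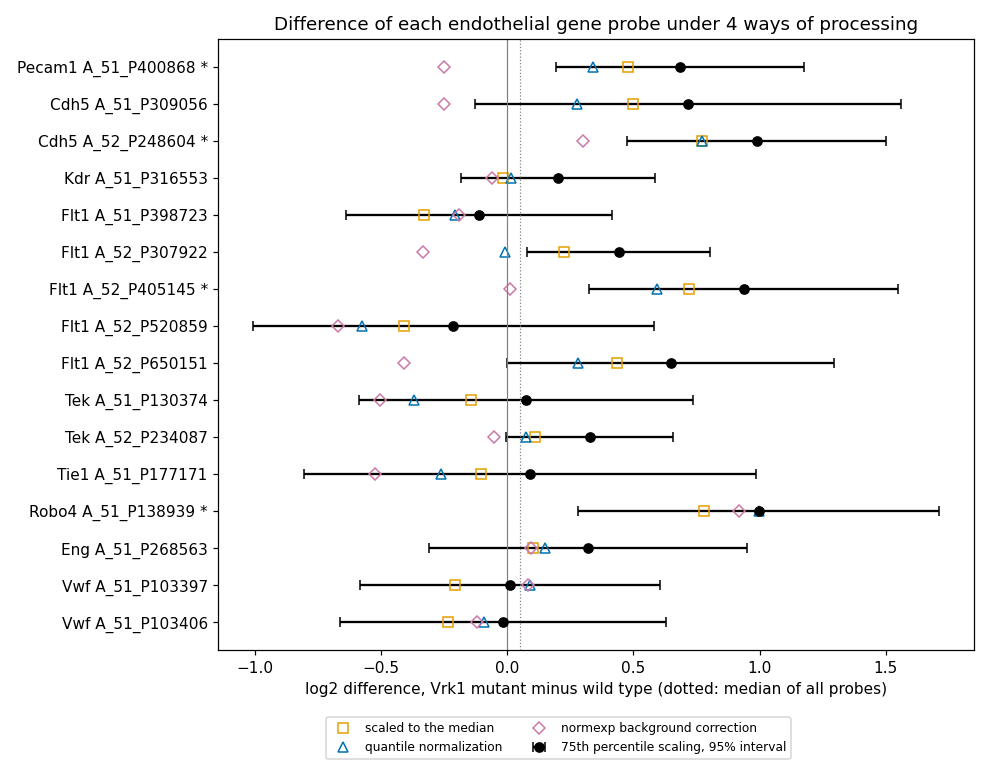
Log2 difference, mutant minus wild type, of each of the 16 endothelial probes. Filled circles are differences after scaling to the 75th percentile with their 95% intervals, open symbols the same probe after scaling to the median, quantile normalization or normexp background correction, the dotted line the median of all probes (0.05), and asterisks the 4 probes that passed; Cdh5 A_52_P248604 and Robo4 stay above 0 by at least 0.30 under each, while Pecam1 goes to -0.25 after normexp correction.

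Tek, the angiopoietin receptor also called Tie2, and Tie1, its co-receptor, had no probe that passed. Tek A_51_P130374 had levels of -4.50, -4.54, -4.85 and -3.78 in the mutant and -5.22, -4.27, -4.51 and -3.97 in wild type, and its difference was 0.07 ± 0.30 (SE; limma adjusted p = 0.860). Tek A_52_P234087, a cDNA probe (AK053336) 132374 bases away, had a difference of 0.33 ± 0.15 (SE; limma adjusted p = 0.112).

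Tie1 A_51_P177171 had levels of -4.83, -5.16, -5.38 and -4.08 in the mutant and -6.12, -4.53, -4.77 and -4.39 in wild type. Wild-type replicate 1 was at the floor and mutant replicate 4 was the highest of the 8 arrays, and the genotypes overlapped. The difference was 0.09 ± 0.40 (SE; limma adjusted p = 0.875), with a 95% interval of -0.80 to 0.98, so changes of that size were not detectable here.

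Robo4 is the Roundabout receptor of endothelium, known for stabilising vessels. Robo4 A_51_P138939 (chromosome 9, 37342570 to 37342629, mm7) had levels of 0.94, -0.61, 0.33 and 0.67 in the mutant and -0.64, -0.90, -0.94 and -0.18 in wild type. Mutant replicate 2 lay inside the wild-type range and the other 3 above it. The difference was 1.00 ± 0.32 (SE), a 2.00-fold rise (limma adjusted p = 0.040). Of the 8 fits that left out 1 array, it passed without mutant replicate 2 or without wild-type replicate 4 and missed in the other 6 (adjusted p up to 0.102). It also missed without mutant replicates 1 and 4 (0.52, limma adjusted p = 0.312), after quantile normalization (limma adjusted p = 0.052) or after scaling to the median (limma adjusted p = 0.080). After normexp correction it was 0.92 (limma adjusted p = 0.039).

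The probe named Esam1 in the files (A_51_P448325, chromosome 9, 37466577 to 37466636, mm7), for an adhesion molecule of endothelial tight junctions, lies 124007 bases from the Robo4 probe. It had levels of -1.47, -1.83, -1.82 and -1.12 in the mutant and -2.76, -1.70, -2.29 and -1.74 in wild type. The genotypes overlapped, and its difference of 0.56 ± 0.26 (SE) did not pass (limma adjusted p = 0.124).

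Eng (endoglin) A_51_P268563 had levels of -1.89, -2.28, -1.98 and -1.20 in the mutant and -2.63, -2.22, -2.28 and -1.50 in wild type. Replicate 4 was the highest array of both genotypes, and the ranges overlapped over most of their length. The difference was 0.32 ± 0.28 (SE; limma adjusted p = 0.393).

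Vwf had the differences nearest to 0 of the 9 genes. Vwf A_51_P103397 had levels of 1.26, 1.14, 0.82 and 1.92 in the mutant and 0.74, 1.32, 1.30 and 1.73 in wild type, a difference of 0.01 ± 0.27 (SE; limma adjusted p = 0.980). Vwf A_51_P103406 differed by -0.02 ± 0.29 (SE; limma adjusted p = 0.969). The 95% interval ran from -0.58 to 0.60 for A_51_P103397 and from -0.66 to 0.63 for A_51_P103406, which leaves room for changes of up to about 0.6 log2 units.

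Within each genotype the endothelial probes moved together from array to array. In the mutant, replicate 4 lay above the mean of its genotype for 14 of the 16 probes and was the highest array for 10, with a median deviation of 0.33. Mutant replicates 2 and 3 lay above it for 3 and 2 probes. In wild type, replicate 1 was the lowest array for 13 of the 16 probes (median deviation -0.50), and replicate 4 was the highest for 11 (median deviation 0.37). The median deviation over all probes stayed within 0.053 of 0 on every array.

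The mean level of the 16 probes spanned -3.01 to -2.40 in mutant arrays and -3.66 to -2.83 in wild-type arrays, so the genotypes overlapped in it. Without mutant replicate 4 and wild-type replicate 1, a choice made after their values were seen, 1 endothelial probe passed (Cdh5 A_52_P248604, 0.80, limma adjusted p = 0.046), and the median difference was 0.10, against 0.02 over all probes. Pericyte and smooth muscle markers, whose cells wrap the same vessels, had their highest summed level in replicate 4 of each genotype too, 24.4 in the mutant and 27.2 in wild type, where the other arrays had 14.1 to 16.4 in the mutant and 15.3 to 16.2 in wild type. The part of this in the differences was not tested.

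**Figure D3:**
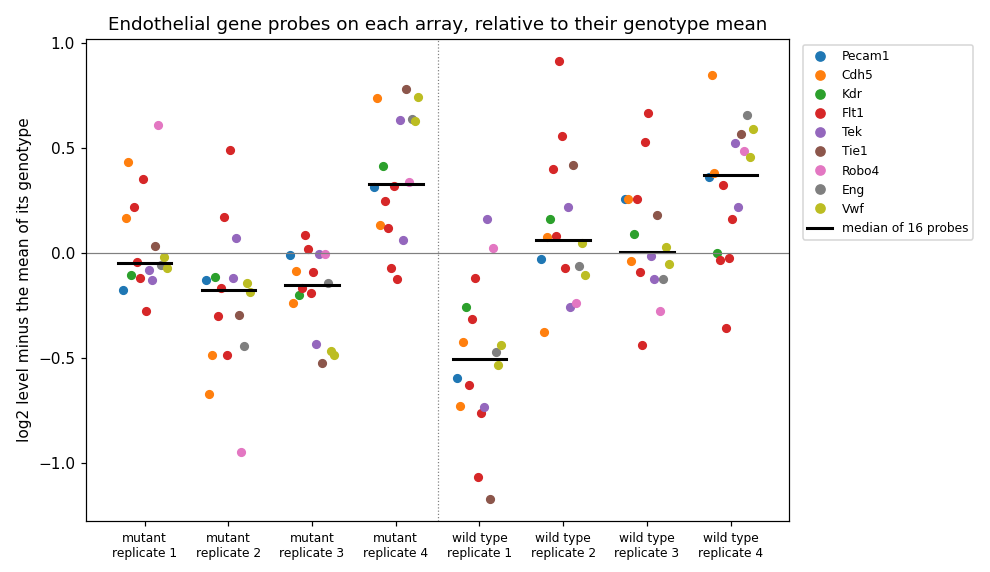
Log2 level of each of the 16 endothelial probes minus the mean of its genotype, on the 4 mutant arrays (left) and the 4 wild-type arrays (right). Points are probes coloured by gene and the black line is the median of the 16, which is highest on replicate 4 of each genotype (0.33 in the mutant, 0.37 in wild type) and lowest on wild-type replicate 1 (-0.50).

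Promoter sequence was set beside these values because endothelial genes are known to share binding sites of ETS-family transcription factors. Promoter windows (GRCm38.p6) were at hand for 6 of the 10 genes, Eng, Flt1, Kdr, Robo4, Tek and Tie1. In the 250 bases before the start, the letters AGGAAG or, on the other strand, CTTCCT were present in 4 of the 6, Eng, Flt1, Robo4 and Tie1, and in 29.5% of all 32851 windows. The letters ACAAAG or CTTTGT, as a SOX motif, were in 2 of the 6 (Eng and Tek) and in 16.5% of windows, and AGATAA or TTATCT, as a GATA motif, in 0 of the 6 and in 9.99%. The 3 motifs were searched on both strands. Robo4 and Flt1 are the genes with a window and a probe that passed, and their windows are printed 5′ to 3′ on the strand of the gene, ending at the base before the start, with AGGAAG in capitals.
Robo4, chr9:37401722-37401971, plus strand: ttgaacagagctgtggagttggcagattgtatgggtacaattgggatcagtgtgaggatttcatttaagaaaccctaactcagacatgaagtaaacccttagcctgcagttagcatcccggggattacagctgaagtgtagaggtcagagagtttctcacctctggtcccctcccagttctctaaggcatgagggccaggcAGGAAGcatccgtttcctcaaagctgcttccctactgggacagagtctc
Flt1, chr5:147726012-147726261, minus strand: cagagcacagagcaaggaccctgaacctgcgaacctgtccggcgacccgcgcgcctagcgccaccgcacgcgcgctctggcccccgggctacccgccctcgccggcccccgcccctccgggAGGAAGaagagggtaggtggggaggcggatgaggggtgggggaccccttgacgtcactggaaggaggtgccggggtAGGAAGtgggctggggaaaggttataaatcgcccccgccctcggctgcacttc
The nearest match lies 49 bases before the start in Robo4 and 53 in Flt1. The start here is the one that each window was cut at, and it is not always the outer end of the annotated gene. On the same assembly Robo4 spans 37401902 to 37414023 and Flt1 147561604 to 147726438. Both of these nearest matches and the whole Flt1 window thus lie inside the annotated gene. The Kdr window and most of the Tek window do so too. A match describes the letters in the window and not the binding of a factor.

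The lists of related genes were read with each gene represented by its passing probe of highest mean level, so a gene counted as not higher or lower can have another probe that was. By that measure 21.6% of the 23962 genes tested were higher in the mutant and 12.2% lower. Of 28 further endothelial markers 26 were tested, and 5 were higher, 1 was lower and 20 did not pass, with a median difference of 0.40. Clec14a, a C-type lectin-domain protein of endothelium, had levels of -3.14, -2.88, -2.94 and -2.90 in the mutant and -4.64, -4.17, -4.86 and -4.71 in wild type. All mutant arrays lay above all wild-type arrays, and the rise was 3.09-fold (limma adjusted p = 0.00057), though it did not pass after normexp correction (0.33, limma adjusted p = 0.192). Vcam1, an adhesion molecule for leukocytes that other testis cells also make, was 2.60-fold higher (limma adjusted p = 0.0031), and passed in each of its 18 alternative fits. The other markers that passed were Ly6c1 (0.68), Thbd (0.93) and Apln (0.57), which rose, and Nos3, the endothelial nitric oxide synthase, which fell (-0.67, limma adjusted p = 0.011). They were named because the list had few calls, after their values were seen. Without mutant replicates 1 and 4, 2 of these markers were higher and 0 lower. The 20 that did not pass include Emcn (0.47), Plvap (0.24), Cldn5 (0.60), Cd34 (0.60) and Egfl7 (-0.01). Aplnr and Calcrl are also among the 20, though each was higher by its other probe (1.21, limma adjusted p = 0.0078, and 0.67, limma adjusted p = 0.021). The other Apln probes gave 0.94 and -0.31.

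The VEGF ligands and the other VEGF receptors had 2 of 8 higher and none lower, with a median of 0.22. These were Vegfd, a ligand of the lymphatic branch (0.92, limma adjusted p = 0.020, passing in 13 of 18 alternative fits), and Nrp1, a VEGF co-receptor (0.92, limma adjusted p = 0.025, and 1.10 by its other probe). Nrp1 passed in 7 of 18 alternative fits and went to -0.11 after normexp correction. None of the 3 tested angiopoietin and Tie partner genes passed. Angpt2, an angiopoietin that competes at Tek, had a difference of -0.26 and Angpt4 one of 0.37.

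Of the 10 tested genes that act with endoglin, 4 were higher and 1 lower, with a median of 0.46. Bmpr2, the type II receptor of the complex, was higher by each of its 3 probes (1.05 by the one of highest level, limma adjusted p = 0.0062). Id3, a transcriptional inhibitor that bone morphogenetic proteins induce, was higher by 0.74 (limma adjusted p = 0.0080). The others that passed were Id1 (0.74) and Id2 (0.59), which rose, and Smad1, a signal transducer, which fell (-0.77). Acvrl1 (ALK1), the endothelial receptor itself, had a difference of 0.69 that did not pass (limma adjusted p = 0.174). Smad4 did not pass by its probe of highest level and was higher by its other probe (0.66, limma adjusted p = 0.010). Many of these genes are made by other testis cells as well.

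The Slit and Robo genes had 2 of 7 higher and none lower, with a median of 0.16. Slit2, a secreted ligand of Robo receptors, was higher by 1.64 (limma adjusted p = 0.00060), and its other probes gave 0.62 and 0.55. Robo2 stood well above background on no array of wild type, where its mean was the floor of -6.12, and entered the test through its mutant arrays. It was at least 2.50-fold higher in the mutant (limma adjusted p = 0.00043). With wild type at the floor, that p-value holds no measured spread of wild type, and the call says little beyond detection in the mutant. After normexp correction Robo2 stood at -0.20 (limma adjusted p = 0.519).

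Among 9 genes of junctions, 2 were higher and 1 lower, with a median of 0.07. Ctnna1, a catenin that ties cadherins to actin, was higher by 0.96 (limma adjusted p = 0.0029), and F11r, a junctional adhesion molecule, by 0.99 (limma adjusted p = 0.0074). Ctnnd1, another catenin, fell by 0.55 with the probe of highest level, while its other probes, at 0.71 and 0.25, did not pass. Jam3 did not pass by its probe of highest level and was higher by its other probe (0.51, limma adjusted p = 0.031). Of the 5 tested partners of von Willebrand factor, Gp1bb, a subunit of its platelet receptor, was higher (0.53, limma adjusted p = 0.021, passing in 10 of 18 alternative fits) and the others did not pass, among them F8 (0.37), the clotting factor that Vwf carries.

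The 11 endothelial transcription factors had none higher and 1 lower, with a median of -0.22. Their summed level was 72.4 to 80.2 in the mutant and 96.7 to 113 in wild type. The further endothelial markers summed to only 15.3 to 23.1 in the mutant and 10.8 to 18.2 in wild type. The part of other testis cells in the levels of these factors was not tested. Sox17, an endothelial SOX factor, fell by 0.53 (limma adjusted p = 0.021, passing in 13 of 18 alternative fits) and by 0.62 with another probe, while its remaining probe, at 0.52, did not pass. Lyl1 had a difference of 0.46 that did not pass (limma adjusted p = 0.084). Ets1 had -0.22 by its probe of highest level, while 1 of its 4 probes was higher (0.48, limma adjusted p = 0.033). In the Notch list 1 of 8 was lower, Hey1, a Notch target (-0.46, limma adjusted p = 0.026, passing in 9 of 18 alternative fits), and Heyl had 0.74 by the probe of highest level and -0.02 by its other probe. Notch1 had 0.41 by the probe of highest level, which did not pass, and was higher by 1.23 with its other probe (limma adjusted p = 0.0018). Of 4 lymphatic endothelial markers, Lyve1, a hyaluronan receptor also found on macrophages, was higher (0.42, limma adjusted p = 0.042, passing in 6 of 18 alternative fits), and Prox1, the lymphatic master regulator, had -0.54 without passing. Pdpn, also on this list, had 0.09 by its probe of highest level and 0.77 by its other probe (limma adjusted p = 0.028).

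Several list medians depended on the scaling. That of the VEGF list was -0.062 after normexp correction, that of the Slit and Robo list -0.057 and that of the junction list -0.15 after scaling to the median, that of the von Willebrand factor partners -0.31 after quantile normalization, and that of the lymphatic list -0.082 after scaling to the median. The median of all probes moved as well, from 0.05 to -0.17 after scaling to the median, -0.07 after quantile normalization and -0.23 after normexp correction. The median of the further endothelial markers stayed above 0 under median, quantile, spike-in and normexp processing.

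**Figure D4:**
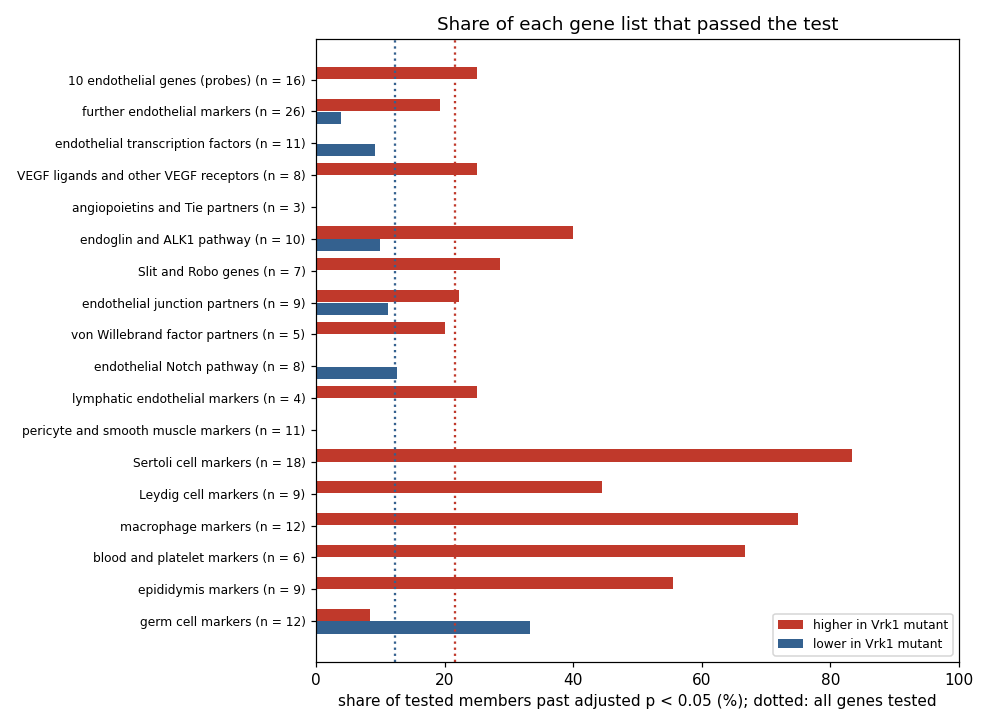
Share of tested genes of each list that were higher (red) or lower (blue) in the mutant at an adjusted p under 0.05, with the 16 endothelial probes in the top row and dotted lines at 21.6% (higher) and 12.2% (lower), the shares over all genes tested. The endothelial probes stand at 25.0% higher, further endothelial markers at 19.2%, Sertoli cell markers at 83.3% and pericyte and smooth muscle markers at 0. Each listed gene counts by its probe of highest level only.

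Markers of the other cell types in the samples were read in the same way, since testis RNA mixes them all. None of the 11 pericyte and smooth muscle genes passed, although their median was 0.41. Myh11, smooth muscle myosin, had 0.54, and Notch3, a pericyte receptor, 0.61. Sertoli cell markers were higher for 15 of 18 genes (median 0.88), among them Wt1 (1.12) and Defb36 (0.97), and Leydig cell markers for 4 of 9 (median 0.90), Hsd3b1 (1.50), Hsd3b6 (1.40), Hsd17b3 (1.25) and Insl3 (0.97). The Leydig genes Cyp11a1 and Nr5a1 were higher only by their other probes (0.94, limma adjusted p = 0.029, and 0.69, limma adjusted p = 0.0094). Macrophage markers were higher for 9 of 12 (median 0.84), with Tyrobp at 1.18 and Cd163 at 1.50. Their summed level was 5.57 to 12.2 in the mutant and 4.42 to 5.58 in wild type.

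Blood and platelet markers were higher for 4 of 6 (median 0.93), with Ppbp at 1.36, Pf4 at 1.23, Ptprc at 0.95 and Itga2b at 0.91, and a summed level of 7.33 to 9.54 in the mutant and 5.12 to 7.76 in wild type. Alas2 (0.48) and the globin gene Hba-a1 (0.11) did not pass, nor did the other Ptprc probe (0.25). Pecam1 is also made by macrophages and platelets, and the part of those cells in its difference was not tested. Germ cell markers had 1 of 12 higher, Kit (0.94), and 4 lower, Acr (-0.66), Hspa2 (-0.67), Ddx4 (-0.55) and Prm2 (-0.41). Whether the shares of these lists differ from that of the endothelial genes was not tested.

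Epididymis markers were higher for 5 of 9 genes, with log2 differences for Elovl3 (2.31), Aqp5 (2.30), Spink8 (3.79) and Crisp1 (4.91), and Cd52 also higher. Elovl3 stood well above background on no array of wild type and entered the test through its mutant arrays, so its rise is a bound (at least 4.97-fold). It passed in 16 of 17 alternative fits, in which its difference went down to 0.40. The epididymis markers differed between mutant arrays. Their levels summed to 35.1, 3.16, 2.87 and 23.6 on mutant arrays 1 to 4 and to 1.29 to 1.78 on wild-type arrays. When mutant replicates 1 and 4 were left out, none of the 16 endothelial probes passed, and their median difference was 0.15, against 0.08 over all probes, where 3.92% of all probes were higher. The part of epididymal RNA in the endothelial differences was not tested.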

How the data were processed

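Per the labels' protocols, Trizol RNA was labelled with Cy3. Agilent Feature Extraction 9.5.3.1 read the scans, per the submitters' processing notes. The deposited intensity values are processed signals, background-subtracted and detrended within each array per the file headers, with nothing scaled between arrays. Values could be negative. The deposited value table held the same signals (all 45018 features, relative tolerance 1e-04), linear and uncentred, with column medians of 97.8 to 205.9. No feature was saturated.

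Signals were scaled to the array's 75th percentile (non-control features), floored at 0.0144 of it and converted to log2. The design had no floor, and negative values made one necessary. Outlier spots were left out and repeated spots averaged. The filter (4 or more of 8 arrays well above background, 3 or more values per genotype) kept 33717 probes. Testing used limma 3.58.1 (R 4.3.3), lmFit and eBayes, genotype only, two-sided, with Benjamini-Hochberg adjustment over all probes. The fit was first tried on simulated data. For a group never well above background, the fold is a bound against that group's floored levels. The number of arrays limits the precision.

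Alternatives were other scalings, normexp correction, other filters, array weights, a replicate block and arrays left out. Genes were named by rule: every member probe, Vrk1, and the 2 smallest p of each list, with other list genes as examples. Members and lists were chosen with earlier results of these data known.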

Additional observations from a re-analysis of the deposited data

Results flagged for a closer look

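Of the 32 groups of 4 arrays examined (16 endothelial probes in each genotype), 1 held an array far from the others. Mutant replicate 4 had a Kdr level of -1.73 (probe A_51_P316553), where the nearest mutant array had -2.25, and this gap was 0.842 of the range of the group, above Dixon's 95% critical value for 4 samples. Chance gives such a gap in about 1 of 20 groups. The same array lay above the mean of its genotype for 14 of the 16 endothelial probes.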

How the results depend on the processing

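The count of endothelial probes higher in the mutant (4) was 1 after scaling to the median, 1 after quantile normalization, 1 after normexp correction, 1 without a filter on dim probes, 7 with a replicate block, 0 without mutant replicates 1 and 4, 1 without mutant replicate 4 and wild-type replicate 1 (added after seeing the data), and 1 to 4 when each array was left out. The share of all probes that were higher moved too, from 21.2% to 13.3%, 12.8% and 6.2% after median, quantile and normexp processing. It was 15.7% without the filter, 27.4% with the block and 14.2% to 21.8% when each array was left out. Without mutant replicates 1 and 4 it was 3.92%, and without mutant replicate 4 and wild-type replicate 1 16.9%. The count lower (0) was 1 after normexp correction and 1 with array weights, where 9.19% and 22.5% of all probes were lower. It stayed at 0 when each array was left out. The median over endothelial probes (0.32) was -0.15 after normexp correction and 0.21 to 0.47 when each array was left out. Scaling to the median moved the median of all probes to -0.17 and normexp to -0.23. The distance between the medians of endothelial probes and of all probes was 0.27 in the reported setting and 0.27, 0.16 and 0.076 after median scaling, quantile normalization and normexp correction.

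Over all probes the count higher (7160) was 4491 after scaling to the median, 4313 after quantile normalization, 2092 after normexp correction, 1321 without mutant replicates 1 and 4, and 4782 to 7351 when each array was left out. The count lower (3655) was 8768 after scaling to the median, 2050 with spike-in scaling, 5913 with a replicate block, 7599 with array weights, 220 without mutant replicates 1 and 4, and 1664 to 4412 when each array was left out. The share of calls that were higher was 66.2% as reported and 33.8%, 54.7%, 73.3% and 40.3% after median, quantile, spike-in and normexp processing.

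Pecam1 turned to -0.25, Nrp1 to -0.11, Robo2 to -0.20 and Lyve1 to -0.15 after normexp correction, and the median of pericyte and smooth muscle markers to -0.072 without mutant replicate 4 and wild-type replicate 1. The causes were not tested.

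The labels number the replicates 1 to 4 in each genotype without saying that a number marks a shared litter or day. Deviations of same-numbered arrays correlated at 0.28, 0.24, 0.09 and 0.61, and those of differently numbered arrays at -0.33 to 0.20. Wild-type replicate 3 correlated more with mutant replicate 2 (0.20) than with its own number, and every other array most with its own number. The arrays were treated as unpaired in the reported fit. With a replicate block the 4 probes that passed had limma adjusted p of 0.0089 (Robo4) to 0.011 (Cdh5 A_52_P248604). Weak signals limit the reading of the dimmer probes: 1 Cdh5 probe and 1 Flt1 probe were well above background on 2 of 4 wild-type arrays.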
